A study of Mus musculus with 37 samples.

Results

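The 10 transcripts described here encode cytokines of the interleukin-1 family, their secreted antagonists and the core proteins of the inflammasome. They were chosen by symbol, and all 10 were found among the 24016 genes of the deposited table. They are Il1a, Il1b, Il1rn, Il18, Il18bp, Casp1, Casp4, Nlrp3, Pycard and Aim2, and all 10 were among the 12296 genes analyzed, which had at least 30 scaled reads in at least 1 library. Bone marrow-derived macrophages (BMDMs) were grown for 6 days with M-CSF from the marrow of males aged 6 to 9 weeks, either wild-type (WT) C57BL/6J or Arntl-/- mice on a C57BL/6 background. The study's text calls the WT animals littermates, whereas its methods name purchased C57BL/6J mice. The Arntl-/- mice lack the clock protein Bmal1 in the whole body. The cells were exposed to Kdo2-lipid A (KLA), a defined part of bacterial lipopolysaccharide that acts through Toll-like receptor 4, for 0, 6, 24 or 48 h, and polyA RNA was sequenced. Each of the 8 conditions was 1 library, with the number of mice behind it not given in the sources used here. There is therefore no replicate check and no test within a time, and the 1 test given compares the genotypes over the 4 matched times. Unless that test is named, the intervals given are 95% intervals that cover the counting of reads only. Unless other times are named, values in a series are in the order 0, 6, 24 and 48 h.

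IL-1β, encoded by Il1b, is made as an inactive precursor after a Toll-like receptor signal and is cut by caspase-1, which is itself activated on an inflammasome. An inflammasome is a complex of a sensor such as NLRP3 or AIM2, the adaptor ASC (encoded by Pycard) and pro-caspase-1. IL-18 is cut by the same protease, whereas IL-1α acts as a full-length or cut protein. IL-1 receptor antagonist, encoded by Il1rn, occupies the IL-1 receptor without signaling, and IL-18 binding protein, encoded by Il18bp, captures free IL-18. Macrophages are a major source of these proteins. RNA levels do not measure the precursor, its cleavage or its release.

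The libraries held 8587560 to 27036783 reads on genes, worked out from the FPKM. The deepest was WT at 6 h, against 15461830 reads in Arntl-/- cells at 6 h. The part of depth in the ratios at 6 h was not tested. A size factor for each library then put the FPKM (fragments per kilobase of exon per 10000000 reads) on one scale, called scaled FPKM. Arntl, the deleted gene, was at 32.3 to 38.7 scaled FPKM in the WT libraries and at 11.3 to 20.2 in the Arntl-/- libraries, without overlap. The 9 macrophage markers in the table summed to 21419, 16036, 28065 and 39202 scaled FPKM in the WT libraries and to 18017, 21650, 26246 and 35171 in the Arntl-/- libraries. At 6 h 8 of the 9 were higher in Arntl-/- cells and the sum was 1.35-fold higher, whereas at 0, 24 and 48 h 8, 7 and 6 of 9 were lower. The sums for dendritic, lymphoid, mast and erythroid markers did not pass 14.3 in any library. The 9 neutrophil markers in the table summed to 1237 to 2570 in WT cells and to 1975 to 2885 in Arntl-/- cells, with Mpo at 0 in every library, and the 6 stromal markers summed to 387, 476, 534 and 1076 in the WT libraries, against 302, 334, 354 and 662. Of the 6 stromal markers, 4, 5, 5 and 3 were lower in Arntl-/- cells in time order, and the rest were higher. In bulk RNA, fewer cells of a type and less RNA per cell cannot be told apart.

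**Figure D1:**
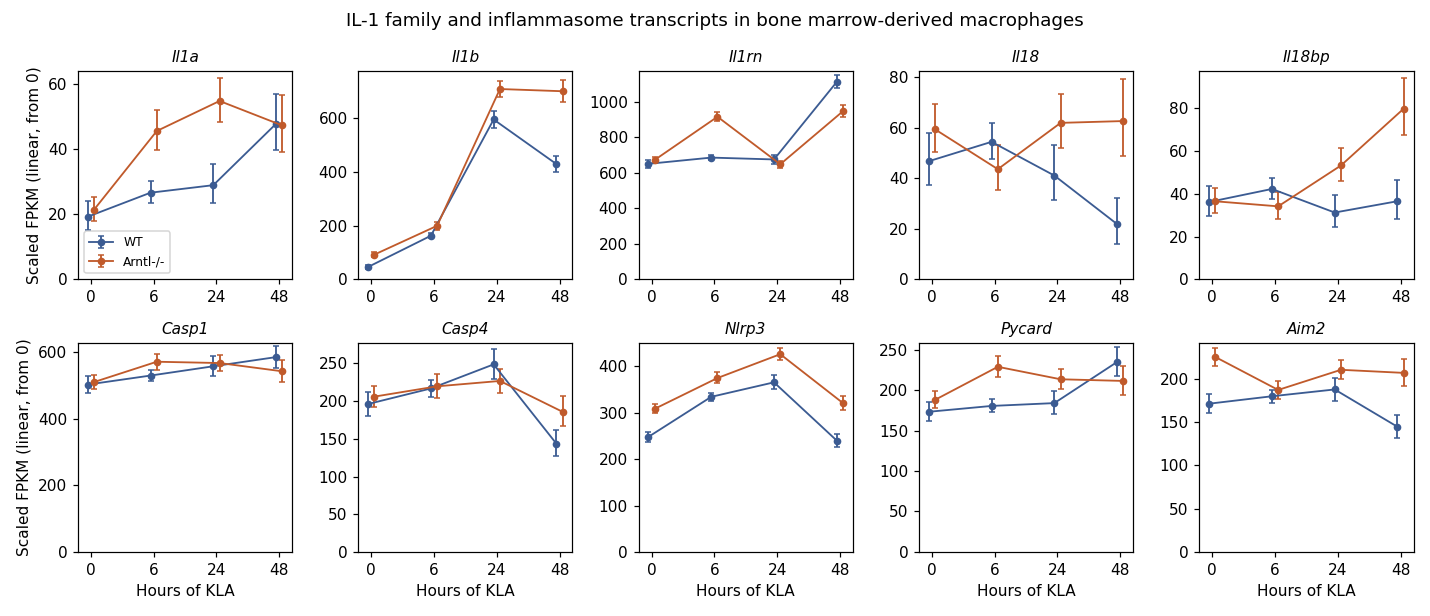
Level of each transcript (scaled FPKM, linear axis from 0) against hours of KLA, 1 library per point, WT in blue and Arntl-/- in orange, with 95% counting intervals. Il1b spans 46.2 to 707 over the 8 libraries, whereas Casp1 stays between 503 and 585.

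The members differed widely in the range of their levels. Over the 8 libraries the highest level was 15.3 times the lowest for Il1b, 2.87 times for Il18, 2.85 times for Il1a and 2.55 times for Il18bp. It was 1.78 times for Nlrp3, 1.73 times for Casp4, 1.72 times for Il1rn, 1.56 times for Aim2, 1.36 times for Pycard and 1.16 times for Casp1. The transcripts for the cytokines Il1b, Il1a and Il18 and for Il18bp thus spread more than those for the machinery that processes them. For Il18 this rested largely on 1 library, WT at 48 h (21.8, with the next level at 41.1). For Il18bp it rested largely on Arntl-/- cells at 48 h (79.9, with the next level at 53.3). Per length, Il1rn was the most abundant of the 10 in 7 of the 8 libraries, and Il1b was above it in Arntl-/- cells at 24 h.

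Il1a and Il1b are neighbors on the minus strand of mouse chromosome 2, 54.6 kb apart, at chr2:129125346-129135708 and chr2:129190316-129196856 (mm9). These neighbors had different time courses, and the part of promoter sequence in this was not tested. Their 250 bases upstream of the RefSeq start site are shown. They are from RefSeq on GRCm38.p6, minus strand, at chr2:129309973-129310222 for Il1a and chr2:129371140-129371389 for Il1b, and capitals mark a match to TGA and TCA around any 1 base, the form of site that AP-1 factors bind.
Il1a: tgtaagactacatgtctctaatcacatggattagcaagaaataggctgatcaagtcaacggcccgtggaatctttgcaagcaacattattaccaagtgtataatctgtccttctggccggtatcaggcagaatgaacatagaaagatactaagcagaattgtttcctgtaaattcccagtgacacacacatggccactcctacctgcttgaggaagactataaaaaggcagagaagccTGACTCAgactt
Il1b: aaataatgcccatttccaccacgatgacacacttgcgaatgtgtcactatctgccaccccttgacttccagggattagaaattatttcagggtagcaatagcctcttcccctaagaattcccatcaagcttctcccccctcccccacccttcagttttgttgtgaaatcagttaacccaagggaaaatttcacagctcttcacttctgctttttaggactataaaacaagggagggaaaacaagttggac
The match in Il1a began 12 bases before the start site. In all, 4 motifs were searched on both strands in 300-base windows that run 50 bases past the start. They were the AP-1 form, the E-box CACGTG, the nuclear receptor half-site AGGTCA, and an NF-κB form that opens with GGG and ends with TTTCC with any 2 bases between. None of the 4 matched exactly in the Il1b window, and looser forms were not searched.

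Il1b was at 46.2, 162, 594 and 428 scaled FPKM in the WT libraries. The Arntl-/- libraries held 92.1, 199, 707 and 699. The Arntl-/- library was higher at all 4 times, and the level at 48 h was close to that at 24 h in Arntl-/- cells but lower than at 24 h in WT cells. In time order, the log2 ratio of Arntl-/- to WT was 0.99 (0.70 to 1.30), 0.30 (0.15 to 0.44), 0.25 (0.15 to 0.35) and 0.71 (0.57 to 0.84). The genotype gap was thus wider before KLA and at 48 h than at the times between, and the direction was the same under all 6 combinations of scaling and pseudocount tried. From 0 to 24 h the log2 change was 3.68 (3.42 to 3.96) in WT cells and 2.94 (2.78 to 3.10) in Arntl-/- cells, which placed Il1b 55th and 21st among 12296 genes. From 24 to 48 h it was -0.47 (-0.60 to -0.34) in WT cells and -0.02 (-0.12 to 0.08) in Arntl-/- cells. These comparisons share libraries, so the higher level at 0 h enters the smaller change in Arntl-/- cells.

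Markers of neutrophils, which also express Il1b, differed between the same libraries. S100a9, a subunit of calprotectin, was at 164, 207, 148 and 10.1 scaled FPKM in the WT libraries and at 403, 428, 371 and 9.00 in the Arntl-/- libraries. Ngp, a granule protein, was at 37.2, 33.3, 17.1 and 0 in the WT libraries, against 83.4, 55.2, 38.4 and 2.70. Ltf, which encodes lactoferrin, was at 18.9, 7.67, 17.5 and 0, against 42.4, 18.4, 25.4 and 0. These 3 were higher in Arntl-/- cells from 0 to 24 h, and at 48 h they had at most 7 reads in either genotype. The other 4 markers analyzed followed that course in part or not at all. S100a8, the other calprotectin subunit, was at 308, 282, 429 and 910 in the WT libraries and at 401, 514, 411 and 905 in the Arntl-/- libraries. Mmp8, a neutrophil collagenase, was at 1055, 691, 1272 and 1642 in the WT libraries and at 1028, 1097, 1195 and 1941 in the Arntl-/- libraries. S100a8 and Mmp8 were thus highest at 48 h in both genotypes. Camp, another granule gene, was at 0, 14.5, 10.1 and 7.58 in the WT libraries and at 12.4, 17.9, 13.5 and 26.3 in the Arntl-/- libraries, from at most 42 reads. Cxcr2, a chemokine receptor, was at 3.10, 1.28, 1.57 and 0 in the WT libraries and at 4.95, 0.777, 5.26 and 0 in the Arntl-/- libraries. Cxcr2 was thus higher in Arntl-/- cells at 0 and 24 h and without reads at 48 h, and it departed from S100a9 at 6 h, where it had 19 and 6 reads. Of the 9 markers in the table, the number higher in Arntl-/- cells was 6, 6, 6 and 3 in time order, and 2, 2, 1 and 4 were at 0 in both genotypes. Their sum was highest at 48 h, at 2570 in WT and 2885 in Arntl-/- cells. The part of these cells in the Il1b values was not tested at any of the 4 times.

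**Figure D2:**
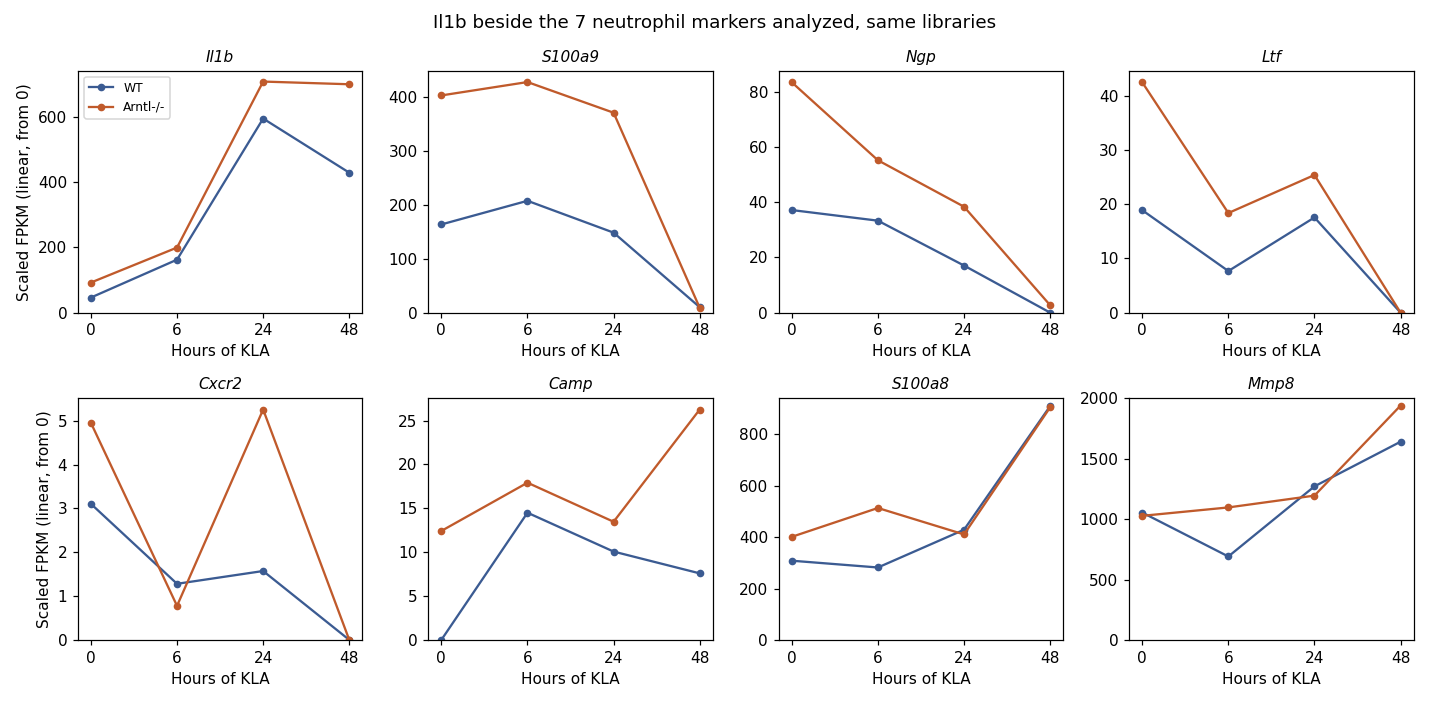
Scaled FPKM (linear axes from 0) of Il1b and of the 7 neutrophil markers analyzed against hours of KLA, 1 library per point, WT in blue and Arntl-/- in orange. S100a9, Ngp and Ltf are higher in Arntl-/- cells at 0, 6 and 24 h and near 0 in both at 48 h, whereas S100a8 (910 and 905) and Mmp8 (1642 and 1941) are at their highest at 48 h and Camp is at 7.58 in WT and 26.3 in Arntl-/- cells.

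Il1a was past 1.5-fold between the genotypes at 6 and 24 h, and Il1b at 0 and 48 h. It was at 19.2, 26.6, 28.9 and 47.7 scaled FPKM in the WT libraries and at 21.3, 45.5, 54.7 and 47.1 in the Arntl-/- libraries. The 2 genotypes were close at 0 and 48 h, with Arntl-/- cells higher in between. In time order, the log2 ratios were 0.15 (-0.26 to 0.57), 0.77 (0.51 to 1.04), 0.92 (0.58 to 1.27) and -0.02 (-0.39 to 0.36). The highest Il1a level was reached at 24 h in Arntl-/- cells and at 48 h in WT cells, and these levels, 54.7 and 47.7, did not differ beyond counting error. Il1a rested on 80 to 269 reads per library. Counting ignored strand, and the antisense gene Gm14023, at 4.71 to 12.2 scaled FPKM, overlaps Il1a, so their reads cannot be told apart where the exons overlap. Il1bos, antisense to Il1b, did not pass 3.23.

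Il1rn, on the same chromosome at chr2:24200891-24207011 (mm9), was high before KLA. It was at 650, 685, 675 and 1111 scaled FPKM in the WT libraries and at 672, 915, 647 and 946 in the Arntl-/- libraries. Arntl-/- cells were above WT at 6 h, with a log2 ratio of 0.42 (0.37 to 0.47), and lower at 48 h, with -0.23 (-0.30 to -0.16). At 0 and 24 h the log2 ratio was 0.05 and -0.06, with intervals that included 0. Il1rn at 48 h was the 1 case in 40 where the interval lay below WT. With a lowess correction for expression level, the ratio at 6 h was 0.10. The part of the macrophage markers, whose sum was 1.35-fold higher at 6 h, in this ratio was not tested.

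The ratio of agonist to antagonist RNA within a library needs no scaling between libraries. Il1b per Il1rn was 0.0710, 0.237, 0.880 and 0.386 in the WT libraries, against 0.137, 0.218, 1.09 and 0.738. The Arntl-/- ratio was higher at 0, 24 and 48 h, by 1.93-, 1.24- and 1.92-fold, with counting intervals that did not overlap. At 6 h the intervals overlapped. Il1a per Il1rn had intervals apart at 24 h alone, where it was 0.0844 in Arntl-/- cells and 0.0428 in WT cells. Il1b per Il1a was above WT at 0 h (4.31 against 2.40) and 48 h (14.8 against 8.98), and below it at 6 h (4.38 against 6.10) and 24 h (12.9 against 20.6).

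**Figure D3:**
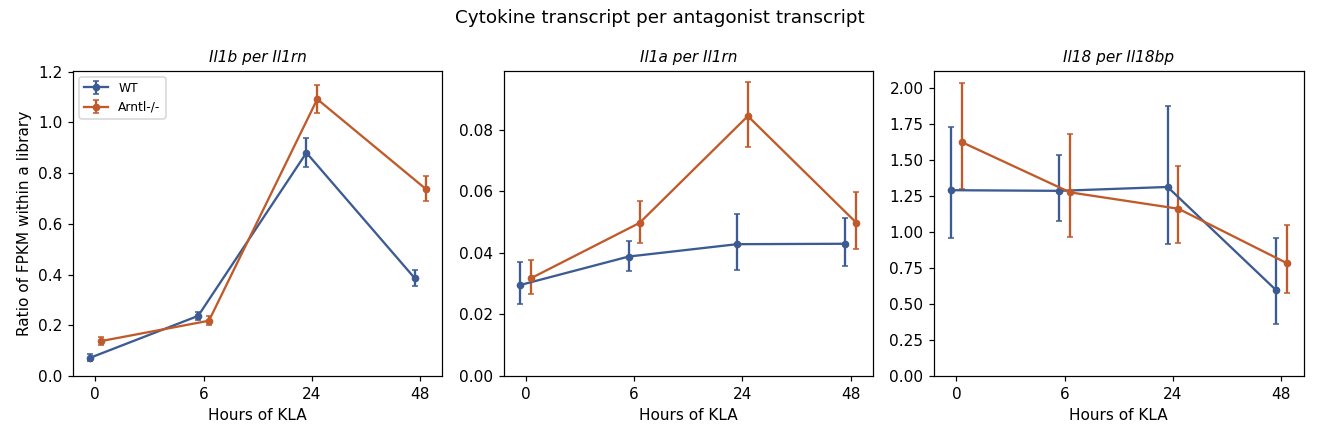
Ratio of FPKM within each library (linear axes from 0) against hours of KLA, 1 library per point with 95% counting intervals, WT in blue and Arntl-/- in orange. Il1b per Il1rn reaches 1.09 in Arntl-/- cells and 0.880 in WT cells at 24 h and is 0.738 against 0.386 at 48 h, whereas the intervals of Il18 per Il18bp overlap between genotypes at each time.

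Il18 and Il18bp, a cytokine and its soluble antagonist, both differed between the genotypes late in the time course. Il18 (chr9:50373473-50389942, mm9) was at 46.7, 54.4, 41.1 and 21.8 scaled FPKM in the WT libraries and at 59.3, 43.6, 61.9 and 62.6 in the Arntl-/- libraries. The WT level at 48 h was below each of the other 7 libraries, and it rested on 25 reads against 69 in Arntl-/- cells. In time order, its log2 ratios were 0.34 (-0.04 to 0.74), -0.32 (-0.68 to 0.03), 0.59 (0.14 to 1.06) and 1.52 (0.84 to 2.24). At 24 h this was 1.506-fold, just past the 1.5-fold line, and the log2 ratio fell under that line with upper-quartile scaling (0.58), the lowess correction (0.54) and a pseudocount of 1 (0.58). Of the 10 transcripts, Il18 thus had the highest genotype ratio at any time and also the widest interval.

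Il18bp (chr7:109163591-109166669, mm9) was at 36.2, 42.3, 31.3 and 36.6 scaled FPKM in the WT libraries and at 36.5, 34.2, 53.3 and 79.9 in the Arntl-/- libraries. The levels at 24 and 48 h in Arntl-/- cells were above the other 6 libraries. The log2 ratios were 0.01 (-0.35 to 0.38), -0.31 (-0.63 to 0.00), 0.77 (0.37 to 1.18) and 1.13 (0.70 to 1.57). Il18 per Il18bp was 1.29, 1.29, 1.31 and 0.597 in the WT libraries, against 1.62, 1.27, 1.16 and 0.783. In both genotypes this ratio was lowest at 48 h. Il18bp lies 11.2 Mb and Pycard 14.7 Mb from Arntl on chromosome 7, and the part of sequence linked to the deleted allele was not tested.

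Casp1 and Casp4, which encode caspase-1 and the lipopolysaccharide-sensing caspase-11, are neighbors on the plus strand, 1.58 kb apart, at chr9:5298517-5307281 and chr9:5308860-5336791 (mm9). The 250 bases before their start sites are shown because they hold matches to motifs that Bmal1 and NF-κB bind. They are from RefSeq on GRCm38.p6, plus strand, at chr9:5298267-5298516 for Casp1 and at chr9:5308599-5308848 for the first of 2 Casp4 starts. Capitals mark CACGTG, the E-box that Bmal1 binds with its partner Clock, in Casp1, and the NF-κB form in Casp4.
Casp1: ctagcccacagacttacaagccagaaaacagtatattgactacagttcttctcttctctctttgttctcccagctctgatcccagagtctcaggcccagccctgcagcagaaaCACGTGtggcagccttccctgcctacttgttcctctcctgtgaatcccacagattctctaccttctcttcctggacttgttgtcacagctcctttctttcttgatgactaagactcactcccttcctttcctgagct
Casp4: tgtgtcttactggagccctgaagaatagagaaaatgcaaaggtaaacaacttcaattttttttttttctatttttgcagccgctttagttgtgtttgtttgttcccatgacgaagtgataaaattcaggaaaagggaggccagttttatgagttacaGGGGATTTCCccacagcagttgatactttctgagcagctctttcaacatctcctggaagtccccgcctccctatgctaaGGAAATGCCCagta
The E-box began 137 bases before the Casp1 start, and the 2 Casp4 matches, the second on the opposite strand, began 93 and 14 bases before its start. Over the 10 members, the E-box matched in 1 gene, the NF-κB form in 2 (Casp4 and Il1rn), the AP-1 form in 2 (Il1a and Il1rn) and the half-site in 1 (Il1rn). Of 27025 genes with promoter windows, 8.09, 1.89, 8.97 and 18.1% held these motifs in at least 1 window, in that order. A match is a run of letters and does not show binding.

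The level of Casp1 was nearly flat. It was at 503, 530, 558 and 585 scaled FPKM in the WT libraries and at 510, 571, 567 and 543 in the Arntl-/- libraries. Its log2 ratios were 0.02, 0.11, 0.02 and -0.11, and of these the interval at 6 h alone excluded 0, where the lowess correction gave -0.12. Casp4 was at 196, 217, 249 and 143 in the WT libraries, against 206, 220, 227 and 186. The WT library at 48 h was below the other 7. The log2 ratio there was 0.37 (0.14 to 0.61), and at 0, 6 and 24 h the intervals included 0. Casp4 per Casp1 was 0.245 in WT and 0.342 in Arntl-/- cells at 48 h, with intervals apart, and the intervals overlapped at the other 3 times.

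Among the sensors, Nlrp3 and Aim2 were higher in Arntl-/- cells at all 4 times. Nlrp3 (chr11:59356188-59380458, mm9), which senses potassium efflux and other stresses, was at 248, 334, 366 and 240 scaled FPKM in the WT libraries and at 309, 375, 426 and 321 in the Arntl-/- libraries. The log2 ratios were 0.31 (0.24 to 0.39), 0.17 (0.11 to 0.22), 0.22 (0.15 to 0.29) and 0.42 (0.31 to 0.52), and at each time they were above 0 and below 1.5-fold. At 6 h the ratio was 0.05 with the lowess correction and 0.03 with values as deposited. Nlrp3 was highest at 24 h in both genotypes, and its level at 48 h was close to that at 0 h.

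Aim2 (chr1:175350735-175396167, mm9), the sensor of cytosolic double-stranded DNA, was at 171, 180, 188 and 145 scaled FPKM in the WT libraries and at 225, 187, 210 and 207 in the Arntl-/- libraries. The log2 ratios were 0.39 (0.28 to 0.51), 0.06 (-0.05 to 0.16), 0.16 (0.04 to 0.29) and 0.52 (0.35 to 0.69). As deposited, the ratio at 6 h was -0.08. The WT level at 48 h was below the other 7 libraries. That library was the lowest of the 8 for 4 members, Il18, Casp4, Nlrp3 and Aim2, and WT at 0 h was for 4 others, Il1a, Il1b, Casp1 and Pycard. Of 12195 genes with a single lowest library, 17.6 and 13.9% were lowest in these 2 libraries. For Nlrp3 the library at 48 h did not differ from WT at 0 h beyond counting error. Nor did WT at 0 h differ from the next lowest library for Il1a, Casp1 and Pycard. At 48 h the 6 stromal markers summed to 1076 in WT and 662 in Arntl-/- cells, with 3 lower and 3 higher in Arntl-/- cells. Their part in these levels was not tested.

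Pycard (chr7:135134887-135137381, mm9), the adaptor, was at 173, 180, 184 and 235 scaled FPKM in the WT libraries and at 188, 229, 213 and 211 in the Arntl-/- libraries. Its log2 ratios were 0.12 (-0.01 to 0.25), 0.34 (0.24 to 0.45), 0.21 (0.07 to 0.36) and -0.15 (-0.32 to 0.01). At no time did it reach 1.5-fold. At 6 h, as for Il1rn, the macrophage markers moved in the same direction, and their part was not tested.

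**Figure D4:**
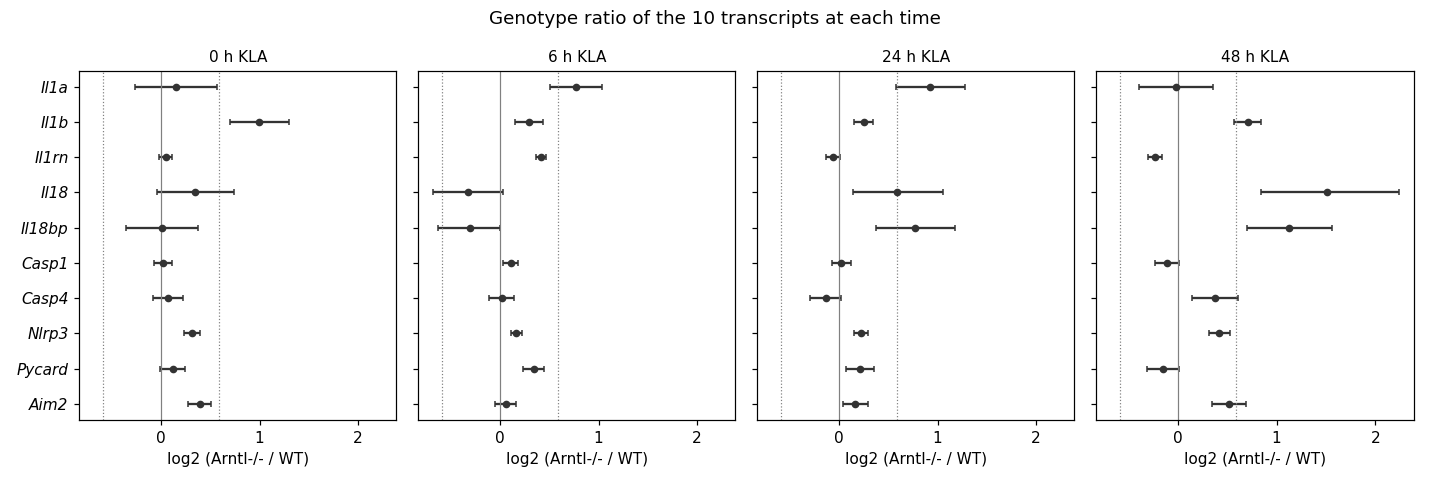
Log2 ratio of Arntl-/- to WT scaled FPKM for the 10 transcripts at each time of KLA, 1 library per genotype, with 95% counting intervals; the solid line is 0 and the dotted lines are 1.5-fold. Il1b is past 1.5-fold at 0 and 48 h, Il1a at 6 and 24 h, and Il18 and Il18bp at 24 and 48 h, with Il18 at 24 h on the line at 1.506-fold, and none is past 1.5-fold below WT.

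The number of members at least 1.5-fold higher in Arntl-/- cells was 1, 1, 3 and 3 of 10 in time order, and the share of all genes analyzed was 7.02, 3.92, 7.73 and 10.4%. At 24 h the number was 2 with upper-quartile scaling, the lowess correction or a pseudocount of 1, each without Il18. None was 1.5-fold lower at any time, where the share of all genes was 4.46, 5.91, 5.91 and 8.87%. These shares include many genes with few reads. Of the 8627 genes that reached 300 scaled reads, 1.56, 1.88, 1.87 and 3.36% were 1.5-fold higher, and of the members past that line Il1b alone reached 300. The median log2 ratio of the members was 0.13, 0.14, 0.22 and 0.40 at the 4 times, where that of all genes was -0.01, 0.00, 0.00 and -0.01. Over 40 pairs of member and time, Arntl-/- cells were higher in 32, and in 30 to 32 under the scalings and pseudocounts tried. Of all genes, 49.1, 49.9, 50.5 and 48.2% were higher in time order, and the 40 pairs are not independent. At 6 h the number of members higher was 8 of 10, or 5 with values as deposited, where the median of all genes moved to -0.13. Il1b, Nlrp3 and Aim2 were higher at all 4 times, as were 8.17% of all genes and 8.11% of those with 300 scaled reads, and no member was lower at all 4 (7.25%). Il1a, Il1b, Il18 and Il18bp were 1.5-fold higher at 2 times each (Il18 at 1 time under those 3 settings), as 6.38% of all genes were at 2 or more, and 0.951% of those with 300 scaled reads.

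The genotypes were then compared over the 4 matched times with limma, with time as a block. The error of this test starts from the spread of the genotype difference between times (3 residual degrees of freedom a gene). That spread was then drawn toward a trend with expression level over all genes, so the intervals are not from a gene's own spread alone. The sources do not say whether the libraries of a genotype came from separate cultures. Of the 10 members, 0 passed an adjusted p of 0.05, as did 0.0813% of all genes in the higher and 0.0651% in the lower direction (10 and 8 genes). At an unadjusted p under 0.05 there were 4 members of 10, and 8.15% of all genes. For Il1b, higher at 4 of 4 times, the mean log2 difference was 0.56 (95% interval 0.28 to 0.84), with a limma adjusted p of 0.263. For Nlrp3, also higher at 4 of 4, it was 0.28 (0.11 to 0.45), with a limma adjusted p of 0.418. Aim2 (0.28, 0.07 to 0.49, higher at 4 of 4) and Il1a (0.46, 0.01 to 0.90, higher at 3 of 4) had limma adjusted p of 0.482 and 0.612. The other 6 had means of 0.01 to 0.53 and adjusted p of 0.634 to 0.995. Without 1 time, the interval included 0 for Il1a without 6 h (mean 0.35) or 24 h (0.30) and for Aim2 without 0 h (0.25) or 48 h (0.21). The interval of Il1a also included 0 with the lowess correction over all 4 times (-0.02 to 0.91). The means of Il18 and Il18bp were 0.21 and 0.16 without 48 h, and 0.82 and 0.63 without 6 h, where their intervals excluded 0. For Pycard the mean was 0.22 (0.02 to 0.43) without 48 h, whereas its interval over all 4 times was -0.08 to 0.34. The number of members at an unadjusted p under 0.05 was 3 with the lowess correction, and 3, 5, 3 and 4 without 0, 6, 24 and 48 h. The background moved too, with 9.39% of the 12296 genes under that p with the lowess correction. It was 6.76% without 0 h, 14.5% without 6 h, 5.09% without 24 h and 6.34% without 48 h. The count of 5 members thus came with the highest background of these fits. Arntl itself was at -1.16, with a limma adjusted p of 0.0843.

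Members that differed by 1.5-fold between times of KLA were counted in each genotype. From 0 to 6 h, 1 member was at least 1.5-fold higher in WT cells (Il1b, 8.99% of all genes) and 2 in Arntl-/- cells (Il1a and Il1b, 5.59%). With values as deposited, Il1a and Nlrp3 passed as well in WT cells. From 0 to 24 h, Il1a and Il1b passed 1.5-fold in both genotypes (11.5% of all genes in WT and 9.99% in Arntl-/- cells), and in WT cells Il1a was at 1.501-fold and fell under the line with values as deposited or a pseudocount of 1. No member was 1.5-fold lower from 0 to 6 h (5.31% of all genes in WT and 6.66% in Arntl-/- cells) or from 0 to 24 h (11.9% in each). From 24 to 48 h in WT cells, Il1a and Il1rn were 1.5-fold higher (12.1%), and Il18, Casp4 and Nlrp3 were 1.5-fold lower (12.4%). Of these, Il1rn fell under the line with the lowess correction and Nlrp3 with upper-quartile scaling, and all 5 did with a 2-fold line. In Arntl-/- cells no member moved by 1.5-fold over that interval in either direction (11.0% of all genes higher and 11.5% lower). The nearest were Il18bp at 1.498-fold higher and Il1rn at 1.46-fold higher. Both passed with upper-quartile scaling, and Il18bp with the lowess correction. Whether the genotypes differ in these changes was not tested.

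Other genes of the pathway were taken from lists of symbols. Of 6 further IL-1 family ligands, the 4 named Il33, Il1f5, Il1f8 and Il1f10 were at 0 in every library. Il1f9, which encodes IL-36γ, was at 64.1, 122, 161 and 293 scaled FPKM in the WT libraries and at 92.3, 136, 153 and 261 in the Arntl-/- libraries, and it did not differ by 1.5-fold between genotypes at any time. It was thus higher at each later time in both genotypes. Il1f6, which encodes IL-36α, was 2.97-fold higher in Arntl-/- cells at 24 h (16.4 against 5.45, from 36 and 8 reads). It entered the genes analyzed through that Arntl-/- library alone, so this difference is not independent of the filter. At 48 h it had 6 reads in Arntl-/- cells and 0 in WT cells, at least 2.08-fold higher when WT is set to the floor of 3 reads in a library.

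Of 8 receptor genes, 5 were analyzed, and none of these was past 1.5-fold lower in Arntl-/- cells with an interval that excluded 0. With that rule the share of all genes that were higher was 5.77, 3.55, 6.39 and 8.77% in time order. Il18rap, the accessory chain of the IL-18 receptor, was higher at 0 h (14.3 against 7.26) and 48 h (11.5 against 5.08). Il1r1, the signaling IL-1 receptor, was higher at 24 h (45.4 against 28.8) and 48 h (40.5 against 25.1), and Sigirr, a negative regulator of the family, at 48 h (14.6 against 3.41). At 6 h none of the 5 was past the line. At 48 h, 3 of 5 were.

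Of 11 other sensors, 9 were analyzed. At 0 h Naip5, which binds flagellin, was higher in Arntl-/- cells (94.7 against 59.8), and Naip1 (2.28 against 3.88) and Nlrp10 (1.57 against 6.00) were lower, as were 3.72% of all genes. At 24 h Nlrp10 had 36 reads in Arntl-/- cells and 0 in WT cells, at least 8.02-fold higher at the same floor. At 48 h Nlrp1a (21.6 against 12.4) and Mefv, which encodes pyrin (222 against 144), were higher. Naip and Nlrp1 genes have close paralogs that can share reads, so their values are uncertain.

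All 13 effectors and regulators were analyzed, and 1 differed between genotypes by the same rule. Dfna5, which encodes the pore-forming protein gasdermin E, was lower in Arntl-/- cells at 24 h (57.4 against 92.9), where 4.96% of all genes were lower. Gsdmd, the gasdermin that caspase-1 and caspase-11 cut, was at 531, 553, 561 and 616 in WT cells and was not past 1.5-fold at any time. Panx1, a channel for ATP release, was higher at 48 h than at 24 h in both (182 against 118 and 162 against 85.3, where 10.7 and 9.96% of all genes were).

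The 7 IFI200 genes, relatives of Aim2 that encode interferon-induced DNA-binding proteins, were all analyzed. Between genotypes 1 of 7 was past the line, Ifi202b at 48 h, with 56 reads in Arntl-/- cells and 0 in WT cells, at least 19.4-fold higher at the floor. Ifi202b entered the genes analyzed through that library alone, so the filter fixed this difference. These genes are near-identical in parts, so the division of reads among them is uncertain.

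Changes of the listed genes with KLA were counted by the same rule over the steps from 0 to 6 h, 0 to 24 h and 24 to 48 h, in that order, and steps that share a library are not independent. Of all genes, 7.96, 10.4 and 10.7% were higher and 4.92, 10.6 and 10.9% lower in WT cells, and 4.77, 9.34 and 9.96% were higher and 5.63, 11.1 and 10.3% lower in Arntl-/- cells. Of the 7 IFI200 genes, WT cells had 6, 2 and 5 higher, Arntl-/- cells had 4, 4 and 1 higher, and 0 were lower. In WT cells from 0 to 6 h these were Ifi203 at 2.16-fold, Pyhin1 at 1.95-fold, Ifi205 at 1.88-fold, Mndal at 1.64-fold, Mnda at 1.55-fold and Ifi204 at 1.503-fold. At 24 h in WT cells, Pyhin1 (1.75-fold) and Ifi203 (1.54-fold) were above their level at 0 h. From 24 to 48 h in WT cells, Ifi205, Mnda, Mndal, Ifi203 and Ifi204 were 1.55- to 1.97-fold higher. In Arntl-/- cells Ifi205, Mnda, Pyhin1 and Ifi203 were higher both at 6 h (2.70-, 1.81-, 1.78- and 1.75-fold) and at 24 h (2.02-, 1.63-, 2.14- and 1.61-fold) than at 0 h. The 1 gene counted from 24 to 48 h in Arntl-/- cells was Ifi202b, which entered through the library at 48 h, so the filter fixed that count too. Aim2 itself was at 1.05-, 1.10- and 0.770-fold over these steps in WT cells and at 0.831-, 0.935- and 0.983-fold in Arntl-/- cells, and the intervals lay below 1 from 24 to 48 h in WT cells and from 0 to 6 h in Arntl-/- cells.

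Of the 9 other sensors, 2, 2 and 2 were higher and 2, 1 and 2 lower in WT cells, and 1, 4 and 1 were higher and 1, 0 and 1 lower in Arntl-/- cells. From 0 to 6 h, Naip5 (1.61-fold) and Nlrp1a (1.54-fold) were higher in WT cells and Naip1 (1.93-fold) in Arntl-/- cells. Over that step Nlrp1b was lower in both genotypes (31.8 to 19.0 and 29.8 to 18.2), and Nlrp10 in WT cells. From 0 to 24 h, Mefv was higher in both genotypes (1.75- and 1.78-fold), Naip5 in WT cells (1.69-fold), and Nlrc4, the partner of the NAIP proteins (1.95-fold), Naip1 and Nlrp10 in Arntl-/- cells, whereas Nlrp10 was lower in WT cells. From 24 to 48 h, Naip1 was higher in both genotypes (2.05- and 1.96-fold), and in WT cells Nlrp10 was higher and Mefv (326 to 144) and Nlrp1a (25.3 to 12.4) were lower. Nlrp10 was lower in Arntl-/- cells over that step.

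Of the 13 effectors and regulators, 1, 1 and 1 were higher and 0, 0 and 1 lower in WT cells, and 0, 1 and 2 were higher and 0, 4 and 2 lower in Arntl-/- cells. Trim30a was higher at 6 h (1.68-fold) and 24 h (1.71-fold) than at 0 h in WT cells and at 24 h (1.54-fold) in Arntl-/- cells. Panx1, a channel for ATP release, was higher from 24 to 48 h in both genotypes (1.55- and 1.90-fold), and Ninj1, which ruptures the membrane of dying cells, was in Arntl-/- cells (1.68-fold). In Arntl-/- cells Dfna5 (96.8 to 57.4) and the necroptosis genes Ripk3 (267 to 174) and Mlkl (181 to 115) were among those lower from 0 to 24 h. P2rx7, the ATP-gated channel upstream of NLRP3, was lower from 24 to 48 h (236 to 141). Of the 5 receptor genes, Il1rl2 (1.505-fold) and Sigirr (1.52-fold) were higher from 0 to 6 h in WT cells, where Sigirr was lower from 24 to 48 h. In Arntl-/- cells Il18rap was lower at 6 and 24 h than at 0 h and higher from 24 to 48 h (2.02-fold), as Sigirr was (2.24-fold), and Il1r1 was higher at 24 h than at 0 h (1.59-fold). Of the 2 ligands analyzed, Il1f9 passed the line in each step but the first in Arntl-/- cells. Il1f6 was higher at 6 h than at 0 h in both genotypes. Its values at 24 h in Arntl-/- cells, above those at 0 and 48 h, come from the library that brought it past the filter, so these steps are not independent of it. In WT cells it had 8 reads at 24 h and 0 at 48 h, at least 2.12-fold lower at the floor of 3 reads. Whether the genotypes differ in any of these changes was not tested.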

How the data were processed

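The members and gene lists were chosen with earlier results of these data known. The authors used STAR with mm9, then HOMER on RefSeq exons, without regard to strand (at most 3 tags per position, 1 transcript per gene), and deposited FPKM per 10000000 reads, and versions are not given in the sources used here. Of the value columns, 4 match no sample and were not used, and 1 fragment line was left out. ChIP-seq was not analysed here. For 1 listed gene, values are not reported here. Reads were recovered from the FPKM (100% of low values whole within 0.02 reads) and used for exact Poisson and conditional binomial intervals. Size factors were medians of ratios over the 8 libraries, and log2 ratios used a pseudocount of 0.1. Named genes were the 10 members, Arntl, listed genes at least 1.5-fold apart with a counting interval excluding 1, and the 3 genes most correlated with each member. Other genes were named after their values were seen. Alternatives were other scalings, pseudocounts, filters and a 2-fold line, with a filter of 300 scaled reads chosen after seeing the data. A limma 3.58.1 fit (R 4.3.3, trended variance) of log2 values on genotype and time over the genes analyzed, adjusted by Benjamini-Hochberg, was added after seeing the data. Steps were tested on simulated data. Promoters are from RefSeq (GRCm38.p6), with 10 of 10 members matched. Software was scipy 1.17.1, statsmodels 0.14.6, numpy 2.4.6, pandas 2.3.3 and matplotlib 3.10.9 in Python 3.11.15.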

Additional observations from a re-analysis of the deposited data

How the results depend on the processing

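The labels carry no replicate numbers, so no fit with a replicate number was made, and the limma fit paired the genotypes by time. In that fit, 0 members passed under any of 5 other scalings and pseudocounts or without any 1 of the 4 times. All genes that passed numbered 18, and 7 to 26 under these alternatives, with 11, 8 and 7 without 0, 6 and 24 h. The adjusted p of Il1b was 0.177 to 0.641. Means near 0 changed sign without 6 h for Il1rn (-0.081) and Casp1 (-0.021), and without 48 h for Casp4 (-0.015). Of 500 member ratios and changes recomputed under other scalings and pseudocounts, 457 moved by less than their counting interval and 43 by more, and 0 of the 43 changed sign as a called value. Of 180 counts of members, 168 stayed within 1.5 times. With a 2-fold line, the members higher in Arntl-/- cells numbered 0 at 0 h, 0 at 6 h and 0 at 24 h. At 48 h Il18 (2.86-fold) and Il18bp (2.18-fold) still passed. With that line, members higher in WT cells numbered 1 from 0 to 24 h and 0 from 24 to 48 h. Those lower in WT cells from 24 to 48 h numbered 0. With values as deposited, 3 members were higher in WT cells from 0 to 6 h and 1 from 0 to 24 h, and 1 was from 0 to 24 h with a pseudocount of 1. With the lowess correction 1 member was higher from 24 to 48 h in each genotype, and with upper-quartile scaling 2 were in Arntl-/- cells. Member reads reached 3.35 per exon base, and the effect of the limit on tags per position was not tested. Depth limits Il18, Il1a and Il18bp most, with as few as 25, 80 and 68 reads in a library.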

Other observations

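Over the 8 libraries, the genes whose log2 scaled FPKM correlated most with each member were listed, with n = 8 libraries that share the same depths and scaling, and with no test. For Il1b they were Zfp260 (Pearson's r = 0.992), the retinoic acid receptor gene Rarg (0.991) and Usf1 (0.987), a factor that binds E-boxes. For Il1a they were Qsox1 (0.979), the adenosine receptor gene Adora2a (0.971) and Ticam1 (0.959), which encodes the Toll-like receptor adaptor TRIF. For Nlrp3 they were Slc35c1 (0.969), Mfap3 (0.968) and Mief1 (0.962), and for Aim2 Chkb (0.989), Nxf1 (0.984) and the readthrough ChkbCpt1b (0.979), which can share reads with Chkb. For Il1rn they were Ell2, Mrpl30 and Sptlc2, for Il18 Tmem216, Eml3 and Zfp958, for Casp4 Mgat4a, Cep162 and Coprs, for Casp1 Rab10os, Ndufaf3 and Abcf2, and for Pycard Atp6v0d1, Lrrc8d and Fnta. For Il18bp they were Slc1a3, Mab21l2 and Gm7609, of which the first 2 had a library with 0 reads.

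Between members, r was 0.81 for Il1a with Il1b, 0.51 for Il18 with Il18bp, 0.36 for Il1b with Il1rn and 0.88 for Il18 with Aim2. These are some of the pairs. The highest r was 0.89, for Il1a with Pycard, and Il1a with Casp1 had 0.86. Casp1 and Casp4, the neighbors on chromosome 9, had r = -0.18.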
